A study of Mus musculus with 7 samples.

Results

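Open chromatin at the mouse Erg gene (ENSMUSG00000040732) was described across 7 ATAC-seq libraries of B-lineage progenitors. In ATAC-seq, DNA that is not shielded by nucleosomes is cut and sequenced, and places where fragments pile up above the background of a library are called as peaks. Erg lies on the minus strand of chromosome 16 of GRCm38 (mm10), between 95359169 and 95586593, and is 227.4 kb long. The window examined added 50 kb on each side (95309169 to 95636593). Members were all peaks of the deposited lists that overlapped this window, 300 of 647973 peaks in the series. Where peaks of different libraries overlapped by at least 1 bp they were joined into a region, which gave 66 regions at Erg out of 145247. Because some libraries had 1 broad peak where others had several, summits within 250 bp of each other were also joined into elements, of which there were 82 at Erg out of 163558.

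Each group held 1 library. The WT libraries came from Ergfl/fl mice, in which both Erg alleles are floxed and no Cre is present, and covered pre-proB, proB and preB cells. The Erg KO pre-proB library came from Rag1CreT/+;Ergdelta/delta mice. The 3 Rescue libraries (pre-proB, proB and preB) came from Rag1CreT/+;Ergdelta/delta;IgHVH10tar mice, which have the same deletion plus an immunoglobulin heavy chain allele that is already rearranged. Rag1Cre acts in lymphoid progenitors and their descendants, so Erg was intact in earlier cells of these animals. The labels gave no age, and the methods of the study describe adult mice of both sexes. Stages were taken from the sample titles, which disagreed with the source names for each of the 3 Rescue libraries. With 1 library a group no spread between animals could be estimated and no difference was tested. Intervals given below are 95% intervals that cover counting error only.

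Erg is an ETS-family transcription factor that binds DNA through its ETS domain. It is best known for maintaining haematopoietic stem cells and for its part in megakaryocyte and vascular biology, and it is also expressed early in the lymphoid lineages. Large transcription factor genes of this kind often have alternative promoters and many intronic elements, and the combination that is open can change between cell stages. An accessible promoter or element shows that proteins can reach the DNA there, and it does not give the amount of transcript.

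The GENCODE annotation placed Erg starts at 6 positions. The most upstream start, at 95586593, opens the longest transcript (Erg-206, 11 exons). A pair of starts at 95530365 and 95524603 lies 71.0 and 65.3 kb upstream of the last group, and is called the middle starts. The last group, at 95459348, 95459303 and 95459245, is called the downstream promoter, and 95459348 is the point from which distances are given below, in the direction of transcription. It lies inside intron 3 of Erg-206, so that an element shortly after it is in intron 3 of that transcript and also within the transcripts that begin at the downstream promoter.

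The sequences at or near the Erg promoters and of the leading element in each class are shown because the results turn on them. Those labelled distal start and middle start do not hold the start itself, and the latter lies more than 1000 bp before 95524603. All are on the gene strand, 5′ to 3′, from RefSeq on GRCm38. The first is the 250 bases before the downstream start, from the RefSeq promoter table (chr16:95459349-95459598), and the others are 151 bases around the highest summit. Capitals mark matches on either strand to GGAAGT (bound by ETS factors), AGATAA (factors of the GATA family), TGTGGT (RUNX factors), CAGCTG or else CAGGTG (E-box factors) and CCCNNGGG (EBF factors), which may overlap. The element 30.9 kb downstream was chosen after its values were seen.
Downstream promoter, chr16:95459349-95459598, minus strand: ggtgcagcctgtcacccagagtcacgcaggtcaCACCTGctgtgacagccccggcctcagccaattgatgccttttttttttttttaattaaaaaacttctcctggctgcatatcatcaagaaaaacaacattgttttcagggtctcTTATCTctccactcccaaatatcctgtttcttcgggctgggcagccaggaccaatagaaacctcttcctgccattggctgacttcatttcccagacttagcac
Distal start, 126.3 kb upstream, chr16:95585569-95585719, minus strand: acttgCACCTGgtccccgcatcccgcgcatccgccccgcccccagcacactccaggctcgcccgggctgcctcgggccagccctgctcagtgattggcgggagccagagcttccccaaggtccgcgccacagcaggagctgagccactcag
Middle start, 66.4 kb upstream, chr16:95525635-95525785, minus strand: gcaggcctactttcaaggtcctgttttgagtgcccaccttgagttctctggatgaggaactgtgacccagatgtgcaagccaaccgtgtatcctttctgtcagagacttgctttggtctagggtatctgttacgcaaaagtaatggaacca
WT proB element, 1.2 kb upstream, chr16:95460454-95460604, minus strand: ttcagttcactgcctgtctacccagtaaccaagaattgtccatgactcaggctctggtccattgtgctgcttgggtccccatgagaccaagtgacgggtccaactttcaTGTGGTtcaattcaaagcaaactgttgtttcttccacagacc
Leading shared element, 26.6 kb downstream, chr16:95432676-95432826, minus strand: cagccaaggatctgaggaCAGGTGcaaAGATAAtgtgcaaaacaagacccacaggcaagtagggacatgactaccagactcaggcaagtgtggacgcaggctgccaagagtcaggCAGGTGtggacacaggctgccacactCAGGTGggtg
Late element, 30.9 kb downstream, chr16:95428342-95428492, minus strand: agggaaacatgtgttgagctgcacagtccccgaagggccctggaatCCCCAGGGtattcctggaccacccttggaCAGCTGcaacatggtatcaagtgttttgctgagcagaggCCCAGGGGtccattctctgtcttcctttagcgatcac
Early element, 68.4 kb downstream, chr16:95390908-95391058, minus strand: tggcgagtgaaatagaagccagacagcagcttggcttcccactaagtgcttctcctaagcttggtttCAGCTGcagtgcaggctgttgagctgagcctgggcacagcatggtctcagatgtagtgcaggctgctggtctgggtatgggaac
The downstream promoter held a GATA match and an E-box match. The late element held EBF matches and an E-box match, and the leading shared element held a GATA match and repeated E-box matches.

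The peak lists held between 76465 and 105649 peaks. The background pileup recovered from the deposited folds was between 3.49 and 4.6 fragments, and the weakest peak of each list had a summit pileup of 10 to 12 fragments and a fold of 2.32 to 2.63. An absent peak therefore means accessibility under about that fold, or a stretch under the shortest called length of 200 bp, and not closed chromatin. The stage labels were set beside promoter peaks of marker genes. The promoter of Cd79a, which encodes a signalling chain of the B-cell receptor, had a fold of at most 11.4 in the 3 libraries titled pre-proB and of 59 to 81.3 in the 4 titled proB or preB, which follows the titles and not the source names. Flt3 and Kit, receptor genes of early progenitors, had promoter peaks in every library, with 91.6 to 130 and 14.2 to 46.7. At the promoter of Siglech, a plasmacytoid dendritic cell gene, the pre-proB libraries had folds of 101 to 113 and the other libraries 18.6 to 54.5, and Bst2, of the same cells, had 49.6 in WT, 82.8 in Erg KO and 92.4 in Rescue cells of the pre-proB stage and 33.2 to 35.1 elsewhere. Both genes had promoter peaks in every library. The natural killer cell gene Klrb1c had 35.2 to 49.7 in the pre-proB libraries and at most 5.54 elsewhere, while Ncr1 had no promoter peak in any library. Of the T-cell genes, Cd3e had no promoter peak anywhere and Cd4 had none in WT pre-proB and at most 5.86 elsewhere. By the methods of the study, the sort left out cells bearing CD11c or the natural killer receptor that Klrb1c encodes. The part of these genes' cell types in the results below was not tested.

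Erg was densely covered with peaks at every stage and in every genotype. WT cells had 32 gene body peaks at the pre-proB stage, 40 at the proB stage and 33 at the preB stage. There were 30 in the Erg KO library, and Rescue cells had 32, 35 and 34 at the same 3 stages. Per 10 kb this was 1.32 to 1.76 peaks, against medians of 0.241 to 0.433 for the 2492 protein-coding genes of at least 100 kb, and Erg was denser than 91.5% to 97.8% of them. Peaks covered 8.23% to 8.82% of the gene body in pre-proB cells of the 3 genotypes and 11.8% to 14.3% at the later stages. Both the number of peaks and the covered length were lower in every pre-proB library than in every later one. With each list kept to its 76465 highest scores, the length of the shortest list, pre-proB cells had 24 (WT), 19 (Erg KO) and 21 (Rescue) gene body peaks, and each later library had 32 or 33.

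**Figure D1:**
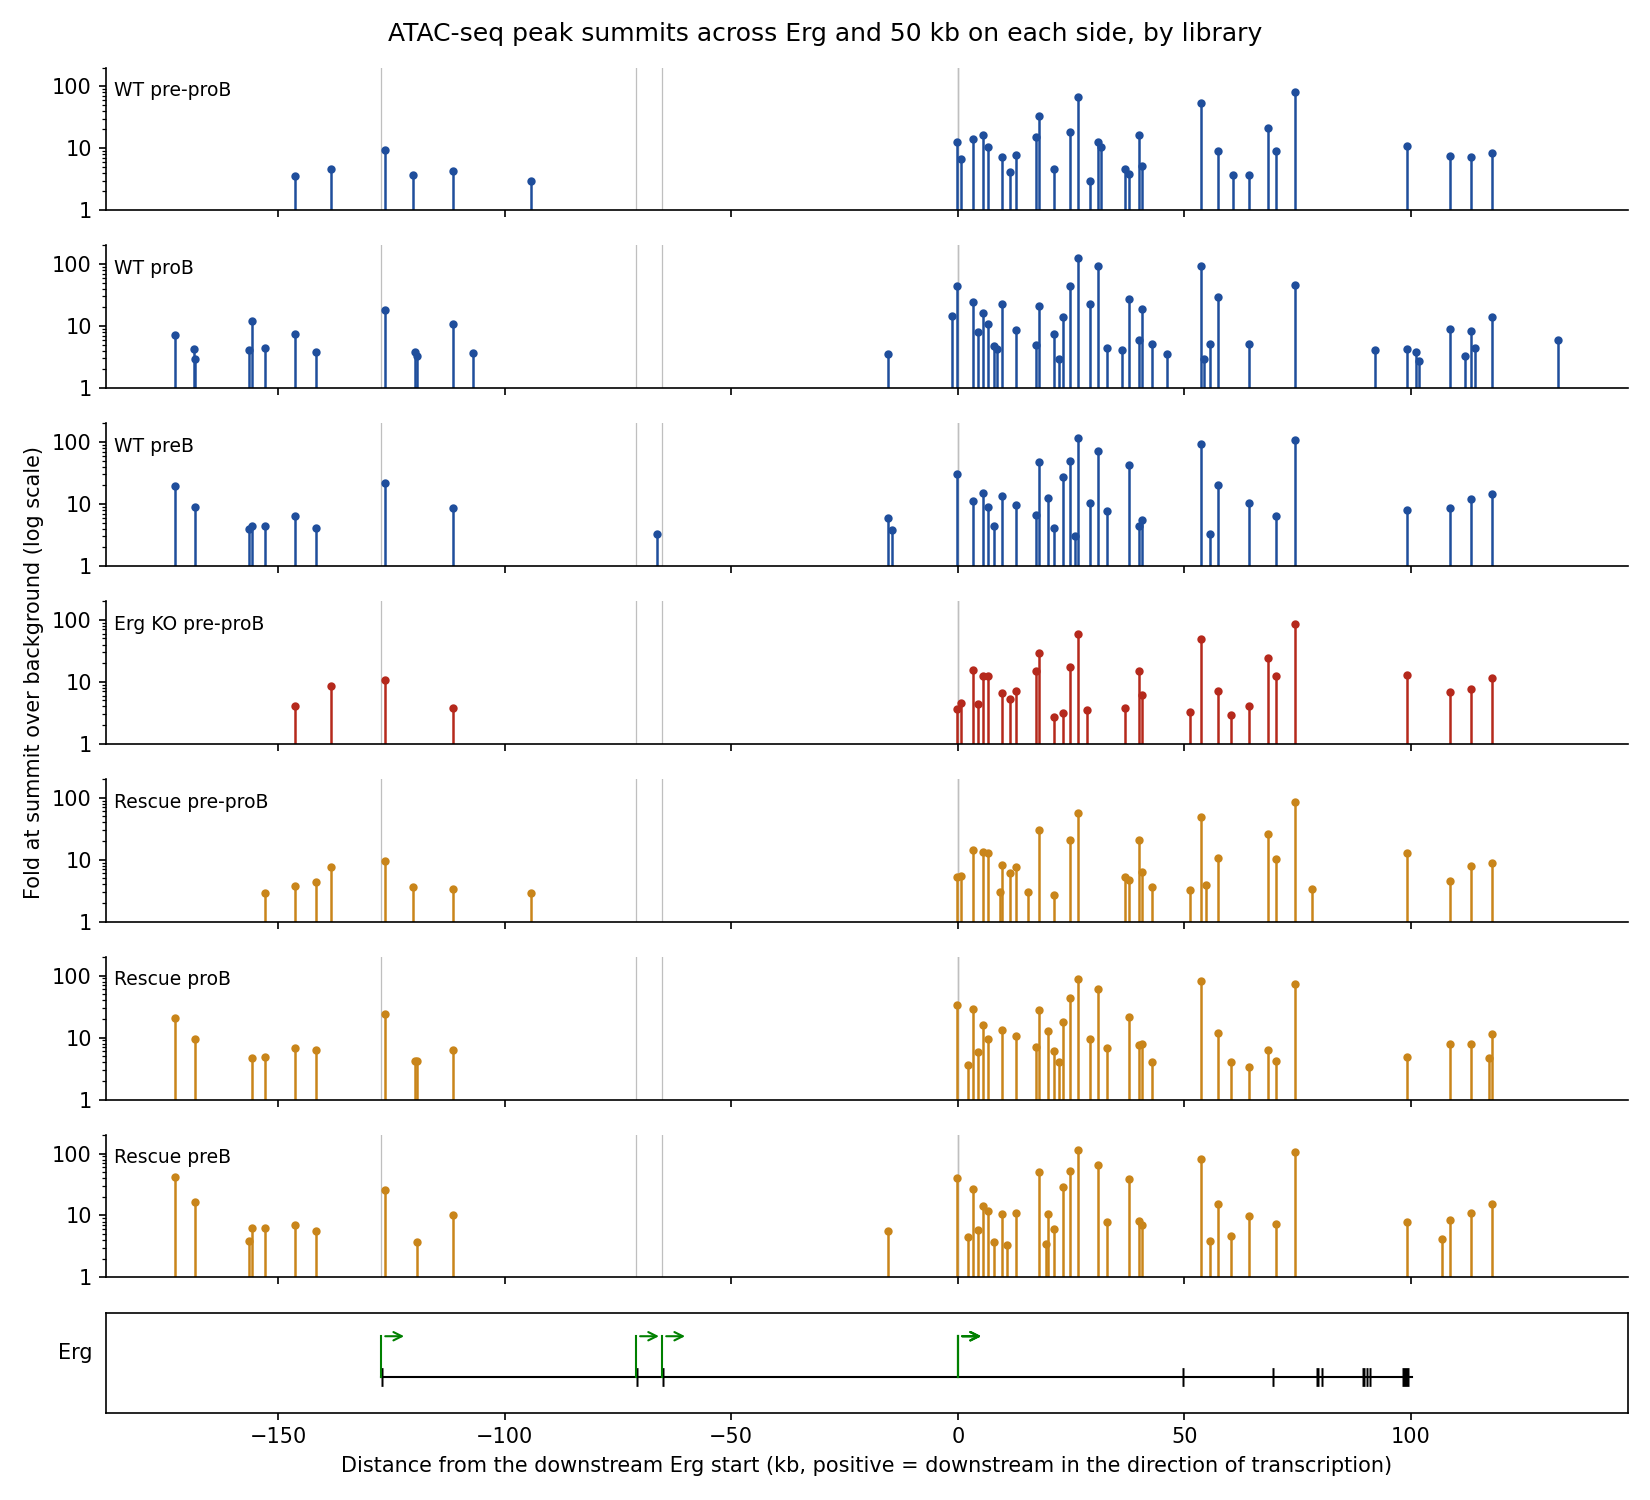
Peak summits at Erg in each library, plotted as distance from the downstream start in kb (positive values are downstream) against fold over background on a log scale, with exons, starts and the direction of transcription at the bottom. Summits crowd into the 100 kb after the downstream promoter, and the stretch between the distal start and the downstream promoter is nearly empty at the middle starts.

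Of the 66 regions, 23 (34.8%) had a peak in all 7 libraries, against 32% of the regions of the series. Another 19 (28.8%) were in 1 library alone, against 17.8% in the series, and 11 of these were in WT proB. These 11 were 16.7% of the Erg regions, against 6.48% of regions in the series with a peak in WT proB alone, and had folds of 2.77 to 14.6. WT proB had a peak in 51 regions, WT preB in 39, Rescue proB in 39 and Rescue preB in 41. The pre-proB libraries had a peak in 32 (WT), 32 (Erg KO) and 36 (Rescue) regions. By place, 28 of the 66 regions had their highest summit in intron 3 of Erg-206, its longest intron, 9 in intron 4, 6 in intron 1 and 3 in intron 5. Introns 2 and 10 and exon 11 had 1 each, the upstream flank 8 and the downstream flank 9.

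The downstream promoter was open in all 7 libraries, weakly in the pre-proB libraries without Erg and strongly in all proB and preB libraries. Its summit lay 0.2 kb upstream of the start. In WT cells the fold was 12.4 (9.58 to 15.8) at the pre-proB stage, 44.9 (39.4 to 50.9) at the proB stage and 30.7 (25.8 to 36.2) at the preB stage. The Erg KO library had 3.66 (2.28 to 5.62). Rescue cells had 5.36 (3.65 to 7.62), 33.6 (28.5 to 39.4) and 39.6 (34.2 to 45.6) at the 3 stages in turn. The pre-proB libraries without Erg were lowest, WT pre-proB was intermediate, and the 4 later libraries were highest whether or not Erg was present. Ranked within its own list, the peak had a higher score than 60.9%, 89.5% and 80.1% of peaks in WT pre-proB, proB and preB. The rank was 8.91% for Erg KO, and it was 30.3%, 85.4% and 84.8% for the 3 Rescue stages.

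The promoter peak was also narrowest in both pre-proB libraries without Erg and broadest at the later stages. WT peaks spanned 664, 2087 and 1945 bp at the 3 stages in turn. The Erg KO peak spanned 385 bp, and Rescue peaks 437, 2217 and 2378 bp. In both pre-proB libraries without Erg the peak ended before it reached the start at 95459348, whereas in the other libraries it ran across all 3 downstream starts. A second summit 0.7 kb inside the transcribed part was separate at the pre-proB stage, with folds of 6.78 in WT, 4.58 in Erg KO and 5.54 in Rescue, and was covered by the broad promoter peak at later stages. WT proB alone had a further peak 1.2 kb upstream, with a fold of 14.6.

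The distal start had an accessible element in all 7 libraries, but not over the start itself. The element lay in intron 1 of Erg-206, with its highest summit 0.9 kb after the annotated start, and no peak of it reached 95586593. WT cells had folds of 9.5 (7.05 to 12.5), 18.1 (14.7 to 22) and 21.5 (17.5 to 26.2) from the pre-proB to the preB stage. The Erg KO library had 10.6 (8.09 to 13.7), and Rescue cells had 9.65 (7.27 to 12.6), 24.3 (20 to 29.3) and 26.2 (21.9 to 31.2). All 3 pre-proB libraries lay below all 4 later libraries, and among the pre-proB libraries the intervals overlapped, with a ratio of Erg KO to WT of 1.12 (0.751 to 1.68). The distal element was thus ordered by stage, and no such gap between genotypes as at the downstream promoter was detectable at this depth.

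The middle starts had almost no called peaks. At 95530365 no library had a peak within 1000 bp. At the edge of the 1000 bp window of 95524603, WT preB had a peak 66.4 kb upstream of the downstream promoter. Its fold was 3.29, which ranked above 1.05% of its list, and the other 6 libraries had none.

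**Figure D2:**
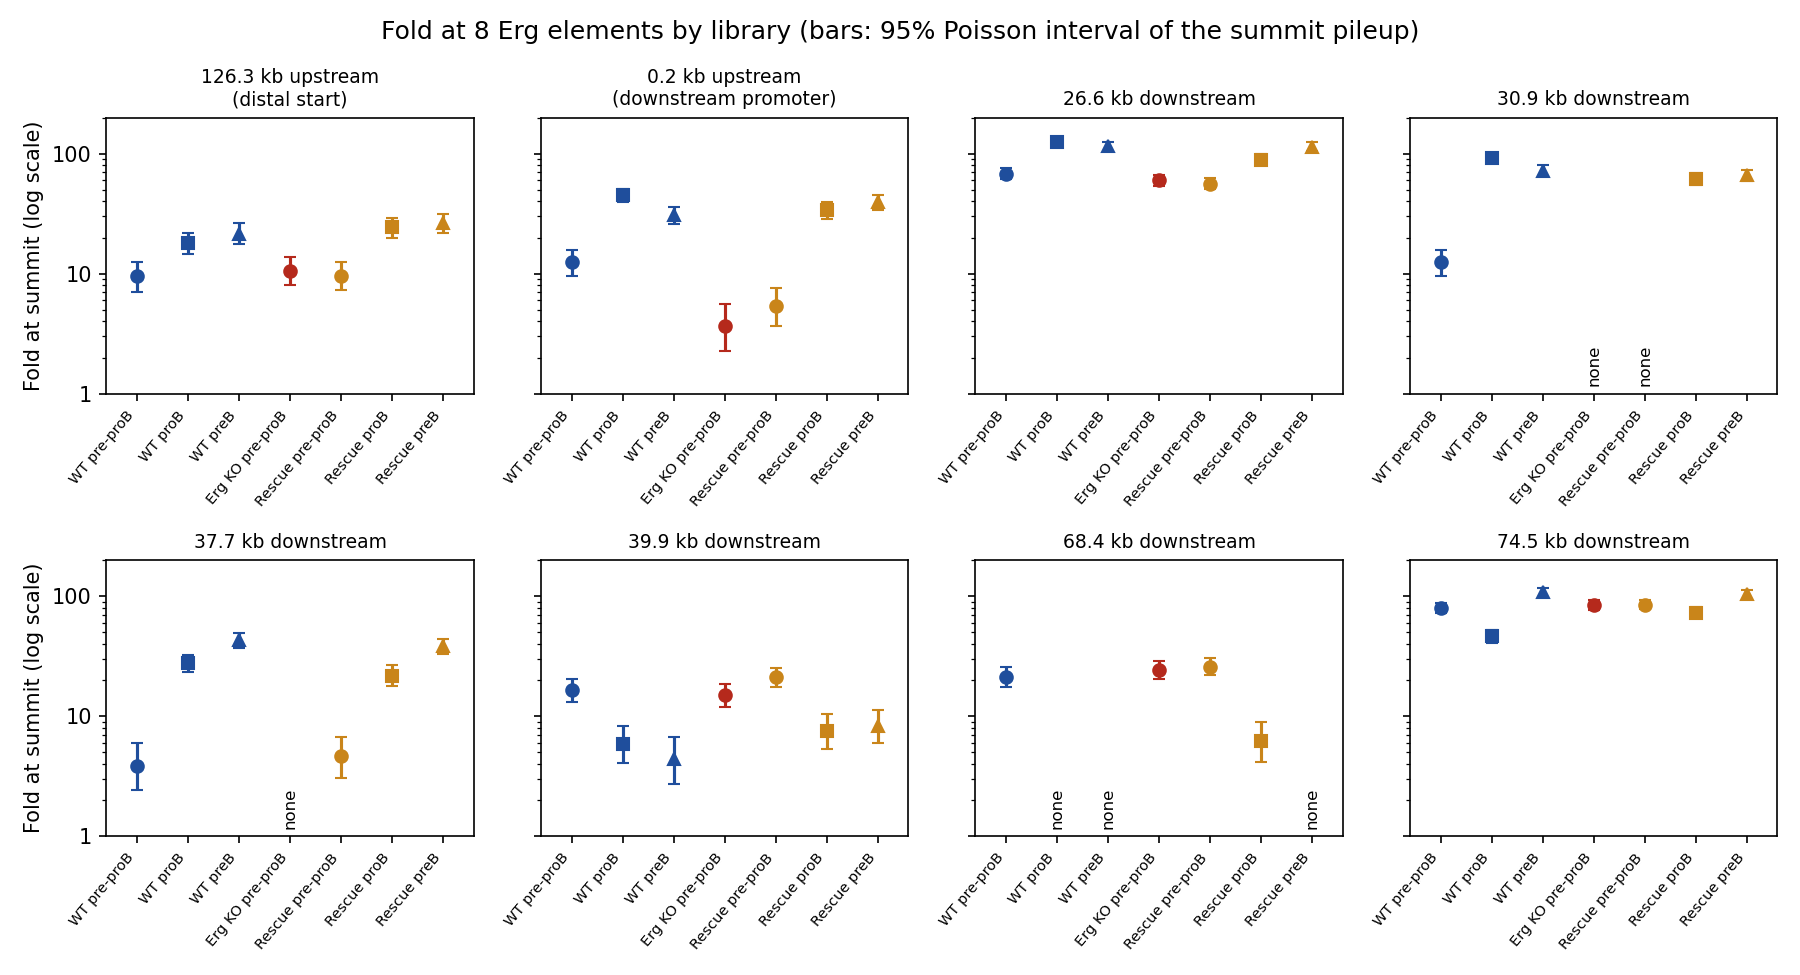
Fold at the summit of 8 Erg elements (log scale) in each library, with 95% Poisson intervals of the summit pileup. Blue is WT, red Erg KO and yellow Rescue, circles are pre-proB, squares proB and triangles preB, and "none" means that no peak had its summit there. The downstream promoter and the element 30.9 kb downstream are lowest in the pre-proB libraries without Erg, while the distal start and the elements 26.6 and 74.5 kb downstream are close to WT there.

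A set of intronic elements was open in every library. By the median of the score rank over libraries, the leading 5 outside the promoters were those 26.6, 74.5, 53.6, 24.8 and 17.9 kb downstream of the downstream promoter, with median ranks of 96.9%, 95.7%, 94.4%, 88% and 82.5%. The element 26.6 kb downstream, in intron 3, was the strongest at Erg in WT proB. Its fold was 68, 124 and 116 at the 3 WT stages in turn, 59.9 in the Erg KO library, and 56.3, 89.3 and 114 at the 3 Rescue stages. The element 53.6 kb downstream, in intron 4, had folds of 52.9, 93.6 and 94.2 in WT, 49.8 in Erg KO and 49.3, 82 and 81.3 in Rescue. Both elements were lower in all pre-proB libraries than in all later libraries.

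The element 74.5 kb downstream, in intron 5, departed from this. Its fold was 80.1, 46.2 and 108 at the WT pre-proB, proB and preB stages, 84.1 in the Erg KO library and 84.9, 72.8 and 104 at the Rescue stages. WT proB was the lowest library, and the preB libraries were the highest. The WT preB fold was 2.34 times that of WT proB (2.01 to 2.74), and 2.91% of the 64918 elements with summits in both had a ratio at least as large. The element 24.8 kb downstream had 18, 44.1 and 49.3 in WT, 17.4 in Erg KO and 21.1, 43 and 53 in Rescue, again with the pre-proB libraries together and the later libraries together. The element 17.9 kb downstream had folds of 21 to 51.2, highest in the preB libraries (46.7 in WT and 51.2 in Rescue).

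**Figure D3:**
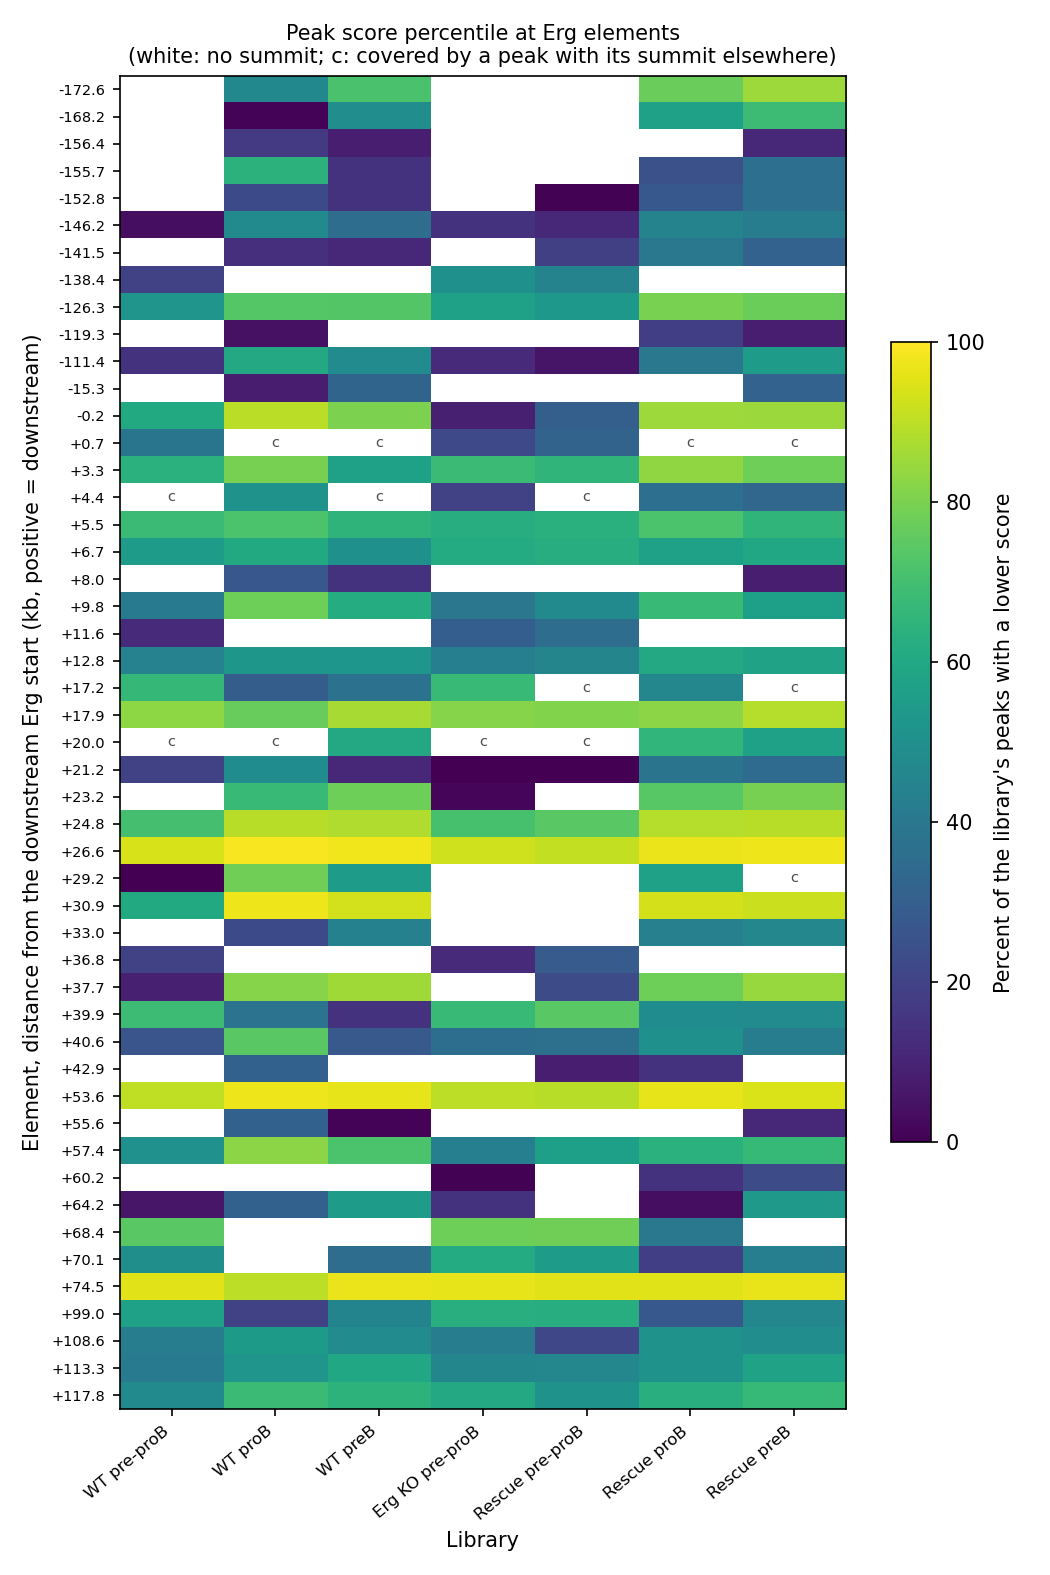
Score percentile (percent of the peaks of that library with a lower score) at the Erg elements with a summit in at least 3 libraries, ordered along transcription from top to bottom, with the distance in kb from the downstream start at the left. White cells have no summit and "c" marks cells covered by a broad peak with its summit elsewhere. The rows at +26.6, +53.6 and +74.5 are bright in all 7 columns, and +30.9 is white in the columns of the pre-proB libraries without Erg and coloured in the other 5.

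Between WT pre-proB and WT proB, accessibility at Erg was higher at the later stage. Of the 51 regions with a WT proB peak, 25 had no WT pre-proB peak (49%, background 31.9% of WT proB regions in the series). In the other direction 6 of 32 WT pre-proB regions had no WT proB peak (background 34.4%). Among the 27 elements with a summit in both libraries, 10 had a fold at least 2 times higher in WT proB (background 13.9%) and 3 a fold at least 2 times lower (background 15.8%). The median log2 ratio of WT proB to WT pre-proB was 0.81 at the 27 Erg elements and -0.07 over the 58539 elements of the series with summits in both. In the Rescue libraries the same pair of stages gave a median of 0.49 at 28 Erg elements and -0.31 over 67030.

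Among elements with both summits, the ratios of WT proB to WT pre-proB were largest in intron 3. At 29.2 kb downstream the fold was 2.91 in WT pre-proB and 22.9 in WT proB, a ratio of 7.87 (4.8 to 15.8). At 30.9 kb it was 12.4 and 91.8, a ratio of 7.4 (5.76 to 9.91), and at 37.7 kb 3.88 and 27.5, a ratio of 7.09 (4.59 to 12.7). The downstream promoter had a ratio of 3.62 (2.76 to 4.91). At 40.6 kb the fold was 5.23 and 18.8, and WT proB stood apart from the other 6 libraries, which had 5.23 to 7.8. In intron 4, the element 57.4 kb downstream had 9.11, 29 and 19.9 at the WT stages and 11.8 and 15.5 in Rescue cells of the proB and preB stages.

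Regions with a WT proB peak and no WT pre-proB peak were led by those 1.2 kb upstream, 23.2 kb downstream, 155.7 kb upstream, 172.6 kb upstream and 132.5 kb downstream. The element 23.2 kb downstream had folds of 14 and 27.2 in WT proB and preB cells and 17.8 and 28.5 in their Rescue counterparts, with a weak peak of 3.11 in Erg KO and none in the WT and Rescue pre-proB libraries. Upstream of the gene, the element at 172.6 kb had 7.2 and 19.3 in WT proB and preB cells, 20.7 and 41.3 in their Rescue counterparts and no peak in any pre-proB library. The element at 155.7 kb had 12.2, 4.38, 4.68 and 6.19 in the same order. The peak 132.5 kb downstream, past the end of the gene, had 5.91 in WT proB and was seen in no other library. Of the 8 regions in the upstream flank, 6 or 7 had a peak in each proB and preB library, against 2 in WT, 2 in Erg KO and 4 in Rescue cells of the pre-proB stage. Of the 145247 regions of the series, WT, Erg KO and Rescue pre-proB had a peak in 90700, 97880 and 101428. The proB and preB libraries had a peak in 71844 to 87423 of them. Over the window, 4 regions (6.06%) had peaks in all 4 proB and preB libraries and in no pre-proB library, against 5.19% in the series.

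A smaller set was more accessible in pre-proB cells. The leading region with a WT pre-proB peak and no WT proB peak was 68.4 kb downstream, in intron 4. Among pre-proB cells its fold was 21.3 in WT, 24.2 in Erg KO and 25.9 in Rescue. Rescue proB had 6.24, and the other 3 libraries had no peak. The 3 pre-proB libraries were close to each other and above all others. Next came the element 70.1 kb downstream, with 8.92, 12.3 and 10.2 in the pre-proB libraries of WT, Erg KO and Rescue, none in WT proB, and 4.23 to 7.22 in the remaining 3. The element 138.4 kb upstream had 4.65, 8.61 and 7.51 in WT, Erg KO and Rescue pre-proB, and that 11.6 kb downstream had 4.07, 5.31 and 6.08. Neither had a peak in a later library, and they were the 2 regions (3.03%) with this pattern, against 11.5% in the series. By summits, the element 36.8 kb downstream also had this pattern, with 4.65, 3.85 and 5.18. The other 2 of the 6 regions were weak, one 60.7 kb downstream with 3.68 in WT pre-proB alone and one 94.2 kb upstream with 2.91 in WT and 2.86 in Rescue pre-proB.

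Other elements kept a peak in every library but were stronger in pre-proB cells. At 39.9 kb downstream the fold was 16.5, 15 and 21.1 in WT, Erg KO and Rescue pre-proB, against 5.91 and 4.38 in later WT cells and 7.57 and 8.25 in later Rescue cells. The ratio of WT pre-proB to WT proB was 2.79 (1.86 to 4.45). In the last exon, exon 11 of Erg-206, the element 99.0 kb downstream had 11, 12.8 and 12.9 in the pre-proB libraries and 4.25, 7.89, 4.9 and 7.84 in the later ones. The 39.9 and 40.6 kb elements lie less than 1 kb apart, and WT proB was below WT pre-proB at the first and above it at the second. At 40.6 kb this rested on WT proB alone, with a fold of 18.8 against 5.23 to 7.8 in the other libraries. The ratio of Rescue proB to Rescue pre-proB there was 1.25 (0.752 to 2.07).

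WT preB had 33 gene body peaks and WT proB 40, and with lists of equal length each had 33. Of the 51 WT proB regions 15 had no WT preB peak (29.4%, background 26.5%), and 3 of 39 WT preB regions had no WT proB peak (background 10.6%). The median log2 ratio of WT preB to WT proB over 38 Erg elements was -0.03, against 0.06 in the series. Both shares were close to the background. The downstream promoter was at 30.7 in WT preB and 44.9 in WT proB, a ratio of 1.46 (1.19 to 1.82) in favour of proB, and 18.1% of elements in the series were lower by as much or more.

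In pre-proB cells, the Erg KO and WT libraries had similar folds at most Erg elements. The Erg KO library was lower at the downstream promoter and had no peak at a pair of neighbouring elements 30.9 and 31.6 kb after it. The Erg KO library had no peak in 3 of the 32 WT pre-proB regions (9.38%, background 6.38%), and WT pre-proB had none in 3 of the 32 Erg KO regions (9.38%, background 13.2%). The 3 unmatched WT regions were 119.8 kb upstream, 60.7 kb downstream and 94.2 kb upstream, all with folds of 3.68 or less. The 3 unmatched Erg KO regions were 51.2, 23.2 and 60.2 kb downstream, with folds of 3.3, 3.11 and 2.93. All 6 were among the weakest peaks of their lists. Counted by summits, 7 WT pre-proB elements had no Erg KO peak, of which those at 30.9 and 31.6 kb had folds of 12.4 and 10.3 and the other 5 had 2.91 to 3.88. The matching share over all elements of the series was not counted, so these 7 have no background. Over 30 elements with summits in both libraries the median log2 ratio of Erg KO to WT was -0.03, against 0.06 over 86493 elements, and 14 were higher and 16 lower in Erg KO.

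The downstream promoter was the 1 element of these 30 with a fold at least 2 times lower in Erg KO than in WT pre-proB (background 0.286%), and none was at least 2 times higher (background 0.28%). Its ratio of WT to Erg KO was 3.39 (2.07 to 6.21), and 18 of the 86493 elements (0.0208%) were lower in Erg KO by as much or more. Against Rescue pre-proB the ratio was 2.31 (1.5 to 3.8), again the 1 element of 31 at least 2 times lower (background 0.284%), with none at least 2 times higher (background 0.526%). In the series 117 of 87194 elements (0.134%) were lower by as much or more. The intervals of Erg KO and Rescue pre-proB overlapped each other and neither overlapped that of WT pre-proB.

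The elements 30.9 and 31.6 kb downstream had peaks in WT pre-proB cells and none in either pre-proB library without Erg. They are in intron 3 of Erg-206, with summits at 95428417 and 95427773. In WT pre-proB their folds were 12.4 (9.58 to 15.8) and 10.3. At 30.9 kb the later folds were 91.8 and 72.3 in WT proB and preB cells and 61.7 and 66 in Rescue proB and preB cells, and in those libraries 1 broad peak of 2033 to 3572 bp covered both summits. Of the 37426 WT pre-proB peaks with a fold of at least 12.4, 24 (0.0641%) overlapped no Erg KO peak and 25 (0.0668%) no Rescue pre-proB peak. The limit of 12.4 is the fold of the 30.9 kb element itself, which was chosen after its values were seen. These shares are therefore a description and not independent support. Joining peaks by overlap alone hid the missing Erg KO peak at 30.9 and 31.6 kb. Broad peaks of later libraries then linked these elements to a separate weak Erg KO peak of fold 3.48 at 28.4 kb. At 29.2 kb WT pre-proB had a weak peak of fold 2.91 and neither Erg-deficient pre-proB library had one.

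**Figure D4:**
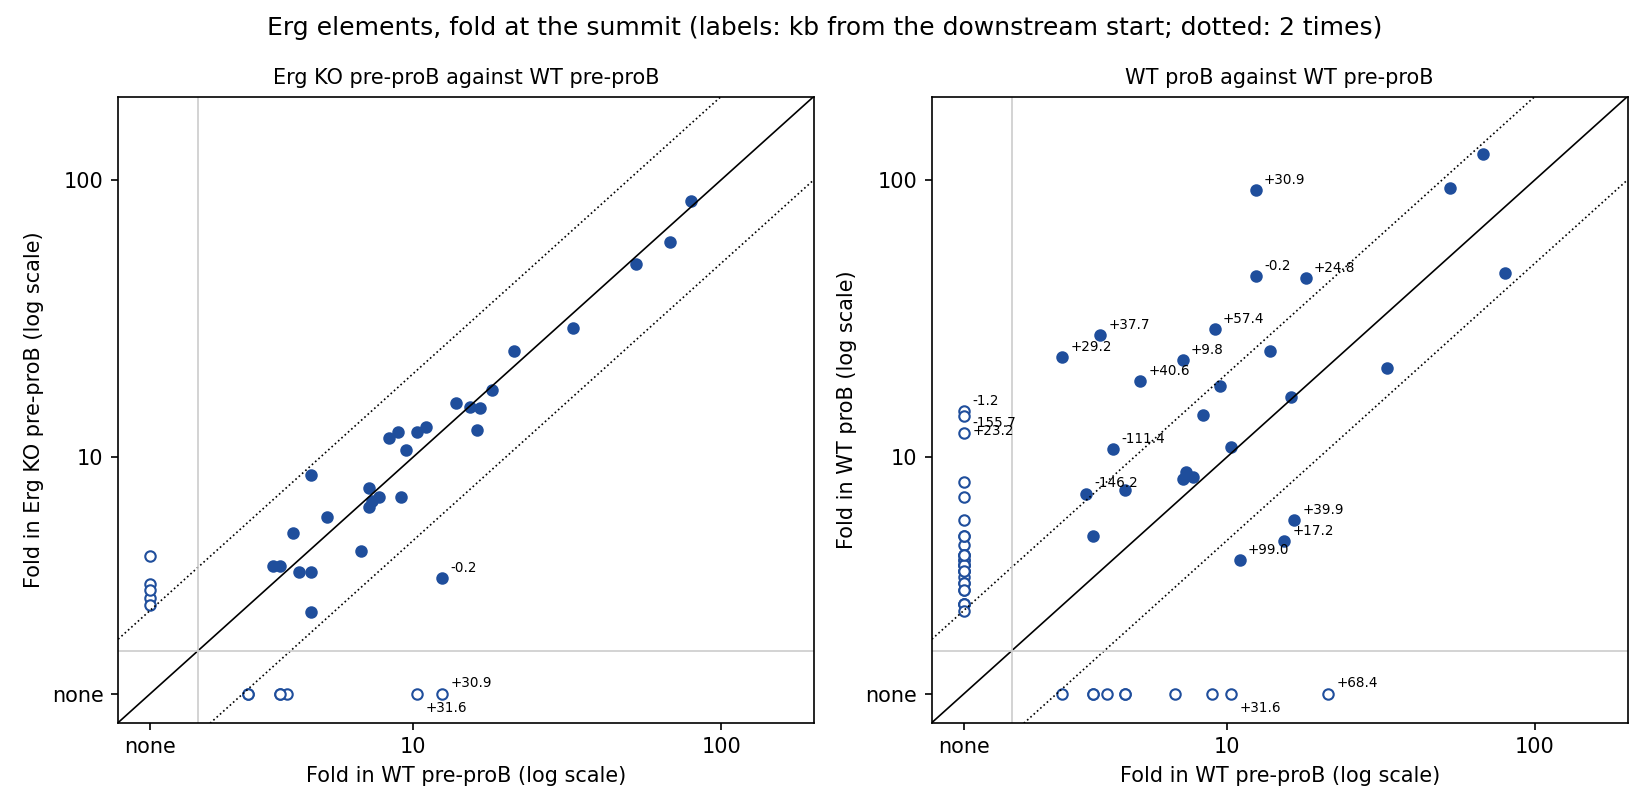
Fold at the summit of Erg elements in Erg KO pre-proB (left) and WT proB (right) against WT pre-proB, on log scales, with equality as a solid line and 2 times as dotted lines. Open points had a summit in 1 of the libraries only and are drawn at "none" on the other axis. Labels give kb from the downstream start. In the left plot the downstream promoter (-0.2) is the filled point below the lower dotted line, and +30.9 and +31.6 have no Erg KO summit.

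The promoter of Cd79a, a gene that marks commitment to the B lineage, moved with these differences. At Pax5, another such gene, the difference was a weak promoter peak in WT pre-proB against none in Erg KO and Rescue. Its gene body peaks numbered 15, 14 and 15 in WT, Erg KO and Rescue pre-proB. The promoter of Ebf1, an early B-lineage factor gene, did not move with them, with 21.5 in WT, 24.4 in Erg KO and 23.6 in Rescue pre-proB. The Cd79a promoter had, among pre-proB cells, a fold of 11.4 in WT, no peak in Erg KO and 3.57 in Rescue, against 59 to 81.3 in the later libraries. The Pax5 promoter had 3.68 in WT pre-proB, which ranked above 6.19% of its list. It had no peak in the pre-proB libraries without Erg, and 28.1 to 45.8 later. Cd79a and Pax5 thus had a promoter peak at the pre-proB stage in WT, that of Pax5 among the weakest of its list. Neither had one in Erg KO, and only Cd79a had one in Rescue. In bulk samples a different number of cells with an open site and a different degree of opening per cell cannot be told apart. Bst2 moved the other way, with 49.6 in WT, 82.8 in Erg KO and 92.4 in Rescue, and Cd4 had no peak in WT, 5.86 in Erg KO and 3.22 in Rescue. Siglech had 101, 103 and 113 and Klrb1c 39.5, 35.2 and 49.7. How far these cell types or the share of committed cells in the pre-proB gate bears on the promoter and the 30.9 kb element was not tested.

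The Rescue pre-proB library lacked a peak in 3 of the 32 WT pre-proB regions (background 5.39%) and had a peak in 7 of its 36 regions where WT had none (background 15.4%). The 3 were the region 30.9 kb downstream and those at 60.7 and 64.2 kb, the latter both with a WT fold of 3.68. The 7 regions had folds of 2.86 to 4.29. Between both pre-proB libraries without Erg the median log2 ratio of Rescue to Erg KO was 0.03 at 29 elements, and at the downstream promoter Rescue was 1.46 times Erg KO (0.807 to 2.81).

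In proB and preB cells, Rescue and WT libraries had peaks at most of the same Erg regions. Of the 51 WT proB regions 15 had no Rescue proB peak (29.4%, background 20.8%), and 3 of the 39 Rescue proB regions had no WT proB peak (background 19.4%). Among 39 elements with summits in both, 2 were at least 2 times higher in Rescue proB (background 5.38%) and 4 at least 2 times lower (background 6.46%), with a median log2 ratio of -0.05 against 0.01 in the series. The 2 higher ones were the upstream elements at 172.6 and 168.2 kb, with 7.2 and 20.7 and with 2.95 and 9.58 in WT and Rescue proB. The 4 lower ones were at 155.7 kb upstream and at 29.2, 40.6 and 57.4 kb downstream. For preB cells, 2 of 39 WT regions had no Rescue peak (background 7.87%) and 4 of 41 Rescue regions had no WT peak (background 17.3%), and the median log2 ratio of Rescue to WT was 0.10 over 38 elements and 0.10 in the series.

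Regions with a WT proB peak and no Rescue proB peak were led by that 1.2 kb upstream (fold 14.6), followed by those 132.5 kb (5.91), 55.6 kb (5.17), 8.0 kb (4.8) and 114.2 kb (4.43) downstream. The reverse 3 were at 68.4, 70.1 and 60.2 kb downstream, with Rescue folds of 6.24, 4.23 and 4.01. At 68.4 and 70.1 kb, which had peaks in all 3 pre-proB libraries, Rescue proB stood between those and WT proB. At the downstream promoter the ratio of WT proB to Rescue proB was 1.33 (1.09 to 1.65), and for preB cells Rescue was 1.29 times WT (1.03 to 1.62). At 30.9 kb WT proB was 1.49 times Rescue proB (1.28 to 1.73), and Rescue preB was 0.913 times WT preB (0.78 to 1.07). The genotypes thus differed in both directions at these elements, by amounts that 15.3% or more of the elements in the series reached or passed. From Rescue pre-proB to Rescue proB the downstream promoter went from 5.36 to 33.6, a ratio of 6.27 (4.31 to 9.95), which 0.628% of 67030 elements reached.

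The part of Erg that was deleted could not be checked from peaks. Exact matches to the genotyping primers of the study lay between 95389573 and 95390553 and bracketed an exon of 152 bp (95389894 to 95390045), exon 5 of Erg-206 and exon 4 of Erg-201. No library had a peak within these 981 bp, so no loss of signal could show there. The nearest peaks were 107 bp below and 132 bp above the interval in coordinates, and belonged to the elements 70.1 and 68.4 kb downstream. Both were present in Erg KO, with folds of 12.3 and 24.2.

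The same motifs were counted in 300 bp around the highest summit of each Erg region. GGAAGT was present in 23 of 66 regions (34.8%), against 33.7% of WT peaks. AGATAA was in 9 (13.6%, against 11.6%), TGTGGT in 19 (28.8%, against 29.6%), CAGCTG in 17 (25.8%, against 25.6%), CAGGTG in 23 (34.8%, against 26.4%) and CCCNNGGG in 10 (15.2%, against 13.9%). The share at Erg differed by less than 10 percentage points from that of WT peaks for each. The 300 bp at the downstream promoter and at the distal start held no GGAAGT, the letters used here for ETS factors. Other sequences that ETS factors may bind were not counted.

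At the genes that act with Erg in blood stem cells or in B-lineage specification, promoters were mostly open throughout. The ETS factor gene Fli1, the closest relative of Erg in the list, had promoter folds of 36.3, 54.3 and 67.5 in WT, 36.1 in Erg KO and 39.3, 62.6 and 82.3 in Rescue. Its pre-proB libraries were the lowest and lay together, as at the distal Erg start. Ebf1, which encodes an early B-lineage factor, had 21.5, 58.9 and 51.1 in WT, 24.4 in Erg KO and 23.6, 48.1 and 43.5 in Rescue. All 8 listed genes (Fli1, Tal1, Lyl1, Lmo2, Gata2, Runx1, Ebf1 and Pax5) had a promoter peak in the WT and the later Rescue libraries and 7 of 8 in Erg KO and Rescue pre-proB, against 61.4% to 65.5% of 21951 coding genes. Gata2, a stem cell factor gene, was the weakest of them in the 4 proB and preB libraries and had 4.6 to 7.01 over all 7. Promoter folds of Tal1 were 8.33 to 16.8, of Lyl1 49.4 to 79.8, of Lmo2 29.9 to 50.8 and of Runx1 43 to 62.

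Among 311 long coding genes with at least 20 peaks in WT proB, the gene body peaks of Nedd9, Mgat5, Pax5, Bcar3 and Rbpms, as a share of each library's list, followed those of Erg most closely over the 7 libraries. The Pearson correlations were 0.998, 0.991, 0.982, 0.980 and 0.977, over libraries that share list length and depth with the Erg counts. Mgat5, which encodes a glycosyltransferase, had 35, 54 and 42 peaks in WT, 33 in Erg KO and 34, 44 and 42 in Rescue. Pax5, a B-lineage commitment factor gene, had 15, 28 and 23, then 14, and then 15, 22 and 20.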

How the data were processed

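The authors sorted pre-proB, proB and preB cells, prepared ATAC-seq libraries, aligned paired reads to mm10 with Bowtie2 and called peaks with MACS2. The submitters' processing notes also name Picard and CASAVA 1.8.2. Options and duplicate handling were not given in the sources used here, and the sources differ on fragmentation (sonication or Tn5 transposase). One peak list per library was deposited. The score deposited by the authors is the −log10 q times 10, with decimals dropped. The ratio deposited by the authors is the fold of the summit over background. The −log10 p and −log10 q values were deposited for each summit, and p was not used. Levels were compared as fold and as the percent of the same list with a lower score.

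Folds were whole multiples of 1 step within 0.02 for 100% of peaks of each list, which gave the background and the summit pileup with exact Poisson intervals. Ratios carry exact binomial intervals. Regions joined peaks overlapping by 1 bp and elements joined summits within 250 bp. Promoters reached 1000 bp on each side of a GENCODE M21 start. Regions were named by fixed rules: those at starts, the leading 5 in all libraries, and up to 5 by score in each direction of the comparisons. Percentages called background are shares of all regions or elements of the series. Members, lists and the 2 times limit were chosen with earlier results of these data known. No significance test was run, and 1 listed marker is not reported here. Region building was tested on simulated peaks. Python 3.11.15, NumPy 2.4.6, SciPy 1.17.1 and matplotlib 3.10.9 were used.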

Additional observations from a re-analysis of the deposited data

How the results depend on the processing

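With 1 library per group, differences between animals could not be told apart from differences between groups. No paired analysis was possible because each group has 1 library. Of 110 alternative values, 69 stayed within 1.5 times the value reported or inside its counting interval, and 41 did not. The causes were not tested. The counts below have no background, since shares over the series were not counted under these settings. Whether the Erg counts moved more than those of all regions therefore cannot be told.

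With every list kept to its 76465 highest scores (the shortest list), Erg KO regions without a WT pre-proB peak numbered 1, WT pre-proB regions without a WT proB peak 3, WT proB regions without a WT preB peak 7 and Rescue proB regions without a WT proB peak 7, and 1 promoter region kept a peak in all libraries. Elements at least 2 times lower in Erg KO then numbered 0, since the weak promoter peak left the Erg KO list, those at least 2 times higher in WT proB than WT pre-proB 6, and those higher in Rescue proB 1. With 38232 peaks a list there were 28 regions, 6 of them in all libraries, 0 promoter regions in all libraries and 102 gene body peaks in place of 236. The counts were then 1 for Erg KO without WT pre-proB, 2 for WT pre-proB without WT proB, 11 for the reverse, 4 for WT proB without WT preB and 5 for WT proB without Rescue proB.

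With summits joined within 250 bp, WT pre-proB without Erg KO became 7, Erg KO without WT pre-proB 5, WT pre-proB without WT proB 10 and Rescue proB without WT proB 6. With a reciprocal overlap of 50% these were 5, 5, 12 and 8. Without the flank, WT proB without WT pre-proB was 14, WT proB without Rescue proB 9, and elements higher in Rescue proB 0. With a flank of 100 kb, Erg KO without WT pre-proB was 6 and Rescue proB without WT proB 5. With Rescue stages from the source names, WT proB without Rescue proB was 24 and the reverse 9. Dividing folds by the library median over regions in all 7 libraries, an alternative chosen after seeing the data, gave 3.52 for the WT to Erg KO ratio at the downstream promoter and 2.57 for that to Rescue pre-proB.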
